A study of Mus musculus with 4 samples.

Results

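Antimicrobial proteins of the intestinal epithelium were followed through 10 genes in mouse colonoids with and without butyrate, among 36144 gene names in the deposited count table. They were chosen by name, after *Retnlb* and *Defa24* had been seen among the genes with the largest decreases with butyrate in these same libraries. The decreases of these 2 genes are therefore a description and not a finding. The genes are *Retnlb*, *Reg3b*, *Reg3g*, *Reg4*, *Ang4*, *Itln1*, *Lyz1*, *Lypd8*, *Pglyrp1* and *Defa24*. All 10 were present in the table, and all 10 had more than 10 counts in at least 2 libraries, as did 13979 names in all.

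The colonoids were grown from the colon of 1 male mouse aged 24 weeks and were used at passage 3. They grew in Matrigel, in crypt medium with EGF, Noggin, R-spondin, the GSK3 inhibitor CHIR99021 and the ROCK inhibitor Y-27632. Cultures received 2 mM sodium butyrate or were left untreated, and RNA was taken at 48 h (labelled day 2) and at 72 h (labelled day 3), giving 4 libraries, 1 for each condition. The labels give the genotype as WT, whereas the study describes its colonoids as derived from a Hes1-GFP reporter mouse, and the genotype entered no comparison. Such cultures are grown from isolated crypts, without microbes, and 1 mouse stands behind every value.

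The labelled tissue was checked against marker genes. *Epcam* and the intestinal factor *Cdx2* had between 3758 and 33929 counts in every library. Of 9 immune cell genes, 1 passed the count filter, and their summed scaled counts were between 44.5 and 71.3. Of 7 stromal and endothelial genes, 3 passed, with sums between 136.0 and 193.5, and *Col3a1* and *Adgre1* had no count in any library. Library totals were between 20790225 and 24207840 counts, and the floor of 3 counts was between 0.124 and 0.144 counts per 1000000 counts of the library (CPM).

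Antimicrobial proteins limit the contact of gut bacteria with the epithelium. Some kill bacteria by damaging their membranes or cell walls, others bind bacterial surfaces and hold microbes away from the mucosa. In the mouse colon they come mainly from goblet cells and deep crypt secretory cells, which secrete RELMβ, intelectin and C-type lectins, and from absorptive colonocytes, which display Lypd8. Paneth cells, which secrete lysozyme and defensins, belong to the small intestine.

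With butyrate, the 10 genes did not move as a block. *Retnlb*, *Defa24* and *Reg3b* were at least 2-fold lower at both 48 h and 72 h, *Reg3g* at 48 h and *Itln1* at 72 h. *Reg4* was 2.08-fold higher at 72 h, and *Ang4*, *Lyz1*, *Lypd8* and *Pglyrp1* stayed within 2-fold at both times. Thus 4 of 10 genes were at least 2-fold lower at 48 h, where 3.08% of all tested names were, and 0 were at least 2-fold higher, where 6.94% were. At 72 h, 4 of 10 were at least 2-fold lower, against 3.78% of all tested names, and 1 was at least 2-fold higher, against 4.53%. At both times together, 3 of 10 were at least 2-fold lower, against 0.887% of all tested names, and 0 at least 2-fold higher, against 2.55%. Since *Retnlb* and *Defa24* chose the group, they should be left out of such a reading. Among the other 8, this leaves *Reg3b* and *Reg3g* at least 2-fold lower at 48 h and *Reg3b* and *Itln1* at 72 h. Only *Reg3b* is left at both times. The median log2 ratio of the 10 genes was −0.08 at 48 h and −0.43 at 72 h, beside −0.01 and 0.00 (0.0022) over all tested names. Without *Retnlb* and *Defa24*, the median of the other 8 was 0.08 at 48 h and −0.29 at 72 h, so its sign at 48 h depended on the genes that chose the group.

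All ratios are butyrate over untreated after scaling with DESeq2 size factors and adding a pseudocount of 1. Ranges in brackets are 95% intervals that cover counting error only. With 1 library per condition there is no replicate check on any difference, and no p-value was computed. In these bulk libraries, fewer cells of a type and less RNA per cell cannot be told apart.

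**Figure D1:**
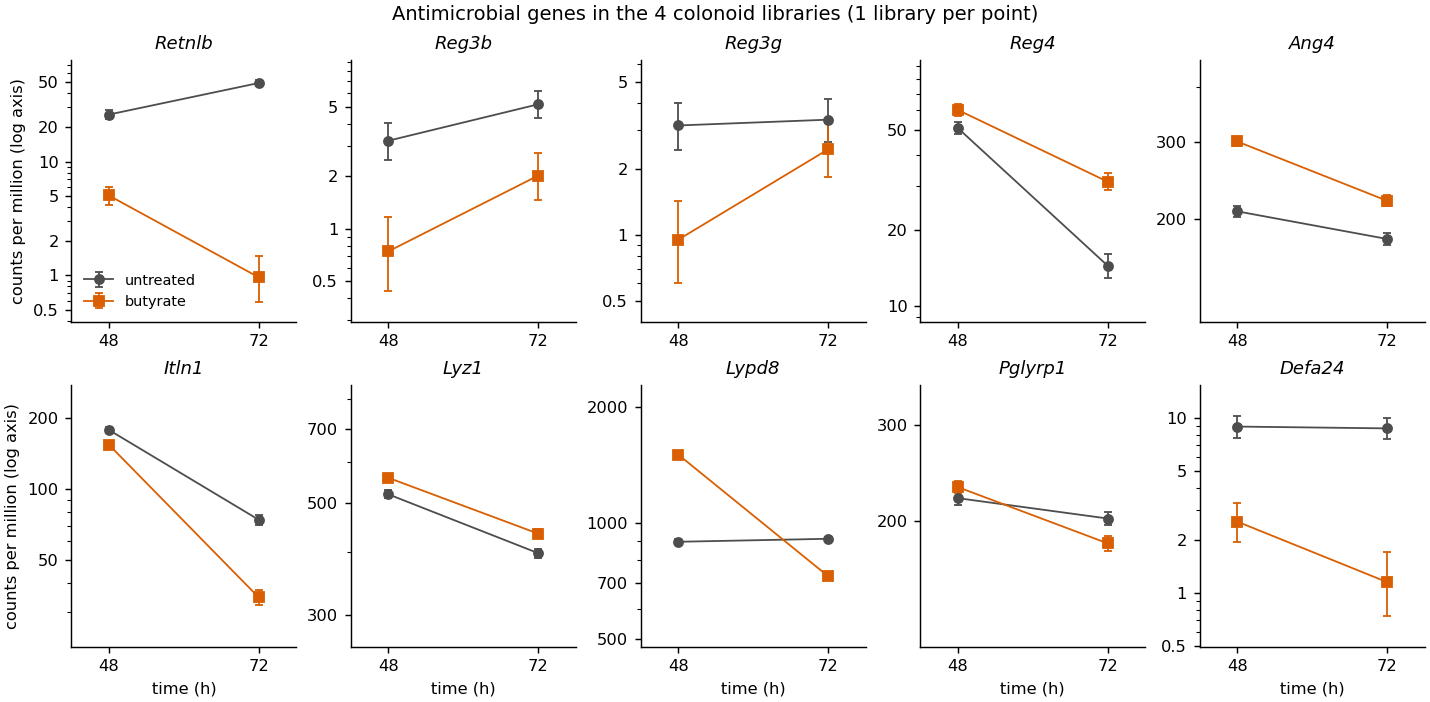
CPM (log axis, own range in each panel) of the 10 genes against time (h), with 1 library per point, untreated in grey circles and butyrate in orange squares, and error bars for the 95% counting interval. *Retnlb* lay at 25.9 and 49.1 CPM in the untreated libraries and at 5.04 and 0.962 in the butyrate libraries, whereas the lines of *Lypd8* and *Pglyrp1* cross between 48 h and 72 h.

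*Retnlb* encodes RELMβ, a small cysteine-rich protein that goblet cells secrete and that kills Gram-negative bacteria. Its gene lies on the plus strand of chromosome 16, from 48816856 to 48818892 in GRCm38, and its transcript is 696 bases long. The coding sequence (first 300 of 318 bases, from the GENCODE M21 transcript, start codon in capitals) is shown because none of the 666 windows of 31 bases in this transcript occurs in a transcript of another gene, so that its reads need not be divided between copies.

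Retnlb: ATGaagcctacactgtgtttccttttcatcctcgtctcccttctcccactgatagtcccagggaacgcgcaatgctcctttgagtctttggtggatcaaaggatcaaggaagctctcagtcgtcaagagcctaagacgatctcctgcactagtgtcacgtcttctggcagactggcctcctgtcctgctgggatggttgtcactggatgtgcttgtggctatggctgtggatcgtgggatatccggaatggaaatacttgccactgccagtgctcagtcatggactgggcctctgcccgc

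Without butyrate, *Retnlb* had 559 counts at 48 h and 1158 at 72 h, and with butyrate 122 and 20. Both butyrate libraries were below both untreated libraries, and the untreated and butyrate libraries moved apart with time. This gave a log2 ratio of −2.36 (−2.66 to −2.08) after 48 h and −5.66 (−6.44 to −5.09) after 72 h, which is 5.13-fold and 50.6-fold lower. The ratio at 72 h was lower than that at 48 h (difference −3.30, −4.002 to −2.61). Between the times, *Retnlb* was 2.00-fold higher at 72 h than at 48 h in untreated cultures and 4.94-fold lower in butyrate cultures. Ranked by the smaller of its decreases at 48 h and 72 h, it ranked 1 among 10789 names with a mean scaled count of at least 100. Those are the values that chose it.

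The decrease of *Retnlb* was set beside the goblet cell genes, since goblet cells make RELMβ. All 14 genes of the goblet cell list passed the count filter. Their log2 ratios were between −0.87 and 0.77 at 48 h, with a median of −0.40, and between −2.53 and 0.04 at 72 h, with a median of −0.80. Of the 14, 0 were at least 2-fold lower at 48 h and 5 at 72 h, against 3.08% and 3.78% of all tested names. At either time 0 were at least 2-fold higher, against 6.94% at 48 h and 4.53% at 72 h. *Zg16*, a lectin-like protein of the mucus layer that aggregates Gram-positive bacteria, was the lowest of them at 72 h (−2.53), with 1506 and 2711 counts in untreated and 1067 and 429 in butyrate libraries. *Clca1*, a secreted protease of goblet cell mucus, had log2 ratios of 0.61 at 48 h and −2.26 at 72 h. *Fer1l6* had −0.49 and −1.32, and *Bcas1* −0.87 and −1.25. That *Retnlb* had a lower ratio than these genes follows from how it was chosen and is a description. Within each library, and so without any scaling, there were 7.82 *Retnlb* counts per 1000 counts of the goblet mucin gene *Muc2* in untreated and 2.13 in butyrate cultures at 48 h, and 9.57 and 0.330 at 72 h. Of the goblet cell genes, 10 of 14 were also below 0 at 48 h, against 51.3% of all tested names, and 13 of 14 at 72 h, against 49.7%. The part of the goblet cell genes in the decrease of *Retnlb* was not tested.

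The genes whose pattern over the 4 libraries lay closest to that of *Retnlb* were found among 10787 uniquely named genes with a mean scaled count of at least 100. The measure was the Euclidean distance between log2 scaled counts, each gene centred on its own mean. The nearest was *Defa24*, at a distance of 1.98, followed by *Ttr* (2.05), *Gm1123* (2.36), *Zg16* (2.57) and *Sval1* (2.58). *Ttr*, which encodes the thyroid hormone carrier transthyretin, had 197 and 171 counts in the untreated libraries and 49 and 22 in the butyrate libraries. The search started from the values that chose *Retnlb*, and *Defa24* was chosen for its decrease too. With 4 libraries, such a likeness describes these cultures only.

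**Figure D2:**
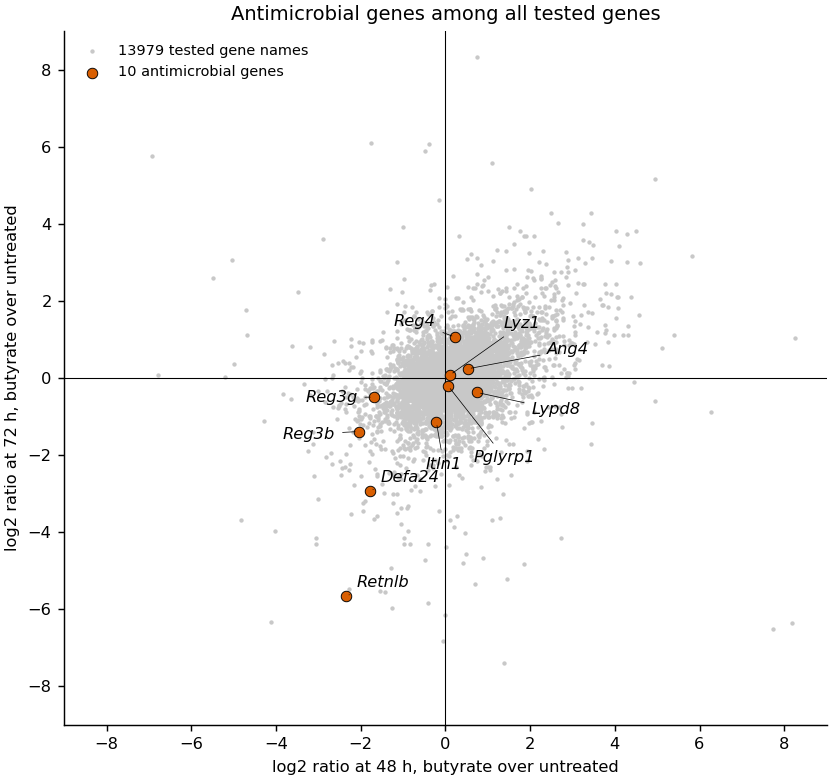
Log2 ratio of butyrate over untreated at 48 h (horizontal axis) against that at 72 h (vertical axis) for the 13979 tested gene names in grey and the 10 antimicrobial genes in orange. *Retnlb* (−2.36 and −5.66) and *Defa24* (−1.79 and −2.92) lie in the lower left, *Reg4* (0.23 and 1.06) and *Ang4* (0.52 and 0.24) in the upper right, and *Lypd8* (0.75 and −0.38) in the lower right.

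*Defa24* encodes an alpha-defensin, one of the small cationic peptides that Paneth cells release to permeabilise bacterial membranes. It lies on chromosome 8 from 21734494 to 21735471, in a cluster of near-identical genes, and its value depends on how reads were divided between them. Of the 389 windows of 31 bases in its transcript, 57.1% also occur in transcripts of other genes, 30 genes in all. The closest by shared windows was *Defa30* (46.3%), followed by *Defa23* and *Defa3* (19.5% each) and *Defa17* (18.3%). The coding sequences of *Defa24* and of *Defa17* (chromosome 8 from 21655780 to 21656735) are shown whole, from GENCODE M21, to make their differences visible. Capitals mark the 12 of 282 bases at which they differ. The counting rests also on bases outside the coding sequence and on the other copies. The coding sequence of *Defa3* (21287409 to 21288377) is identical to that of *Defa17* at all 282 bases.

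Defa24: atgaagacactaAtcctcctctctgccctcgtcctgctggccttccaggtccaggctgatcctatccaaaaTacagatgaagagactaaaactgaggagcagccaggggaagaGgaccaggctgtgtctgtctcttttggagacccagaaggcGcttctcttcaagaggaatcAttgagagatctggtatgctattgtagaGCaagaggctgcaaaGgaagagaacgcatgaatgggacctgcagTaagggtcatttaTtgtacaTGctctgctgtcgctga

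Defa17: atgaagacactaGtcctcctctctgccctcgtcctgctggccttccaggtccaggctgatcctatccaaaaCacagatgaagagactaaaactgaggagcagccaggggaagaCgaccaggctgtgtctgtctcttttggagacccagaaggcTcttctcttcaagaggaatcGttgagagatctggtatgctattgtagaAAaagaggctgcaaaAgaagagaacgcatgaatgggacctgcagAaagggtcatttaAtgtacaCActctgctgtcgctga

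Without butyrate, *Defa24* had 193 counts at 48 h and 206 at 72 h, and with butyrate 62 and 24. The untreated libraries were close to each other, and both butyrate libraries were below them. Its log2 ratio came to −1.79 (−2.25 to −1.39) after 48 h and −2.92 (−3.65 to −2.36) after 72 h. It ranked 4 among the 10789 names by the smaller of its decreases at 48 h and 72 h, which is again the measure that chose it. *Defa17* had 97 and 117 counts in untreated and 16 and 27 in butyrate libraries, and *Defa3* had 119 and 111, and 23 and 22. Both were thus lower with butyrate at both times, and reads within their coding sequences cannot tell them apart.

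Summing rows removes the division of reads among the copies summed. The sum of *Defa24*, *Defa17* and *Defa3* was 409 and 434 counts in the untreated and 101 and 73 in the butyrate libraries. Its log2 ratio was −2.18 (−2.52 to −1.87) after 48 h and −2.43 (−2.82 to −2.08) after 72 h, values closer to each other than the −1.79 and −2.92 of *Defa24*. This sum leaves out *Defa30* and *Defa23*, which had at most 4 and 11 counts in any library. The other rows with a *Defa* name together had 81 and 108 counts in untreated and 175 and 110 in butyrate libraries, a log2 ratio of 0.93 (0.55 to 1.34) and 0.15 (−0.24 to 0.55). Among them, *Defa2* had 11 and 0 counts in untreated and 28 and 43 in butyrate libraries. *Defa20* had 0 and 17, and 33 and 10. Over all 39 rows with a *Defa* name, 20 of which had any count, the log2 ratio was −0.998 (−1.22 to −0.78) after 48 h and −1.43 (−1.69 to −1.19) after 72 h. Genes under other names that share windows with *Defa24*, such as *Gm14851* and *AY761184*, were not summed. The decrease therefore kept its direction in the sum of the *Defa* rows but was smaller there than in *Defa24* alone. These sums were chosen after the values were seen.

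**Figure D3:**
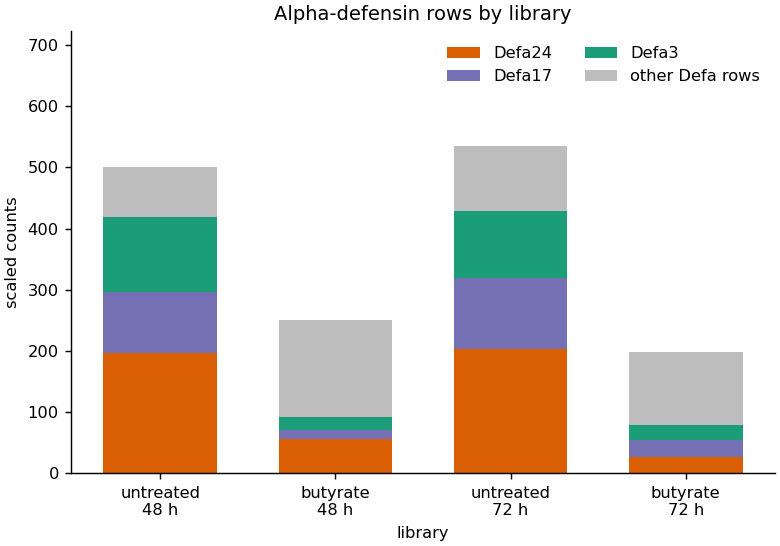
Scaled counts of the alpha-defensin rows in each of the 4 libraries, stacked as *Defa24*, *Defa17*, *Defa3* and all other *Defa* rows. The 3 named rows made up most of the total in the untreated libraries (409 of 490 counts at 48 h, 434 of 542 at 72 h) and less than the other rows in the butyrate libraries (101 of 276 and 73 of 183).

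*Reg3b* and *Reg3g* encode secreted C-type lectins. RegIIIγ binds peptidoglycan and kills Gram-positive bacteria, and RegIIIβ acts mainly on Gram-negative bacteria. Both genes lie on chromosome 6, *Reg3b* from 78370657 to 78373466 on the plus strand and *Reg3g* from 78466269 to 78468872 on the minus strand. Their coding sequences are 75.9% identical, but only 5 windows of 31 bases are shared between their transcripts, 0.446% of those of *Reg3b*. Without butyrate, *Reg3b* had 69 counts at 48 h and 122 at 72 h, and with butyrate 18 and 42. *Reg3g* had 68 and 79 in untreated and 23 and 51 in butyrate libraries. For both genes each butyrate library was below both untreated libraries, at low counts throughout.

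The log2 ratio of *Reg3b* was −2.05 (−2.95 to −1.35) after 48 h and −1.39 (−1.95 to −0.89) after 72 h. That of *Reg3g* was −1.69 (−2.49 to −1.04) after 48 h and −0.49 (−1.04 to 0.02) after 72 h, where the interval included 0, so that no difference could be detected at this depth. In contrast to *Retnlb*, both lectin genes were higher in the butyrate library at 72 h than in that at 48 h, *Reg3b* by 1.42 (0.65 to 2.36) and *Reg3g* by 1.36 (0.66 to 2.18) on the log2 scale. The ratio of *Reg3g* at 72 h was above that at 48 h by 1.20 (0.34 to 2.05). For *Reg3b* the same difference was 0.66, and its interval of −0.25 to 1.56 included 0. Of the Reg genes outside the 10, *Reg2* had between 3 and 16 counts, *Reg1* and *Reg3a* at most 3, and *Reg3d* none.

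The promoters of *Reg3b* and *Reg3g* are shown because the genes moved together at 48 h. They run from 250 bases before to 50 bases after the start site in RefSeq on GRCm38.p6, *Reg3b* at chr6:78370635-78370934 on the plus strand and *Reg3g* at chr6:78468825-78469124 on the minus strand. RefSeq promoters were matched for 8 of the 10 genes. Capitals mark matches to 5 motifs searched for on both strands. The letters of the TATA box were TATAAA, and those of the STAT3 motif were TTCNNNGAA. The STAT6 motif has the same ends as that of STAT3 with 4 free bases between them. The GC box was searched for as GGGCGG, and the motif of the intestinal CDX factors was searched for as TTTATG.

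Reg3b: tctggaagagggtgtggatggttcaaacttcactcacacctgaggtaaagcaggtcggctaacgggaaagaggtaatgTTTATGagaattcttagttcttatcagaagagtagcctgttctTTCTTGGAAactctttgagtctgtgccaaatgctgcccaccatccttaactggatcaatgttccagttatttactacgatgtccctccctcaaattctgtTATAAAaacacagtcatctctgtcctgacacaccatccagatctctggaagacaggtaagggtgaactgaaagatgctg

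Reg3g: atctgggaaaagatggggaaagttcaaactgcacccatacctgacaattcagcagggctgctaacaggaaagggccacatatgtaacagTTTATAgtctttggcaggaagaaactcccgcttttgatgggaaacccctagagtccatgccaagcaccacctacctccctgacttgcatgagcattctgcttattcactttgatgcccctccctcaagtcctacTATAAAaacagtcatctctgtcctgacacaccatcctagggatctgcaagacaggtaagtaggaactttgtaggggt

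The windows are 68.1% identical over an alignment of 304 columns. Each holds a TATA box close to the start site, beginning at position −29 in *Reg3b* and −27 in *Reg3g*, and *Reg3g* holds another on the minus strand at −161. The *Reg3b* window also holds the STAT3 letters at −129 and the CDX letters at −172, which are not in the *Reg3g* window. Of 32851 RefSeq promoters of the same length, 13.6% held the TATA box letters, 8.30% the STAT3 letters and 11.9% the CDX letters. Among the other members, *Ang4* held the STAT3 letters at −192, *Itln1* the CDX letters at −29 and *Pglyrp1* a GC box at −85, and GC box letters were in 35.7% and STAT6 letters in 6.95% of all promoters. A match is a description of the letters and says nothing of binding.

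*Itln1*, on chromosome 1 from 171518122 to 171535294, encodes intelectin-1, a goblet and Paneth cell lectin that binds sugars of microbial surfaces. Without butyrate it had 3832 counts at 48 h and 1745 at 72 h, and with butyrate 3724 and 722. Both libraries at 72 h were below both at 48 h, and at each time the butyrate library was the lower one after scaling. The log2 ratio came to −0.21 (−0.28 to −0.15) after 48 h and −1.14 (−1.27 to −1.02) after 72 h. In untreated cultures alone, *Itln1* was 2.27-fold lower at 72 h than at 48 h, and in butyrate cultures 4.33-fold lower.

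*Reg4* and *Ang4* were higher with butyrate at both times. *Reg4*, on chromosome 3 from 98222156 to 98236748, encodes a further C-type lectin and marks deep crypt secretory cells, which stand between stem cells at the base of colonic crypts. Without butyrate it had 1101 counts at 48 h and 340 at 72 h, and with butyrate 1459 and 648. Both libraries at 72 h were below both at 48 h, and at each time the butyrate library was the higher. This gave a log2 ratio of 0.23 (0.12 to 0.35) after 48 h and 1.06 (0.87 to 1.25) after 72 h. The larger ratio at 72 h went with a 3.35-fold lower level at 72 h than at 48 h in untreated cultures, against 1.89-fold in butyrate cultures.

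The deep crypt secretory list was compared with *Reg4*. Of 7 genes on the list, all tested and *Reg4* among them, 6 had a ratio below 0 at 48 h, *Spink4* among them at −0.0073, and 5 at 72 h, against 51.3% and 49.7% of all tested names. The medians were −0.66 and −0.18. *Mptx1*, a pentraxin, had −0.90 and −1.36 at low counts (24 and 14 at 48 h, 24 and 8 at 72 h). *Kit*, the receptor whose expression defines these cells, had 1527 and 1491 counts in untreated and 897 and 911 in butyrate libraries, with log2 ratios of −0.94 and −0.58. *Kit* was named after its values were seen, since it did not reach 2-fold.

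*Ang4*, on chromosome 14 from 51763878 to 51773590, encodes a microbicidal ribonuclease of the angiogenin family. Without butyrate it had 4488 counts at 48 h and 4242 at 72 h, and with butyrate 7276 and 4573. After scaling, both butyrate libraries were above both untreated libraries. Its log2 ratio came to 0.52 (0.47 to 0.58) after 48 h and 0.24 (0.18 to 0.30) after 72 h. *Ang*, of the same family, had 577 and 453 counts in untreated and 1198 and 736 in butyrate libraries, and *Ang2*, *Ang5* and *Ang6* had no count in any library. The transcript of *Ang4* shared 13.8% of its windows of 31 bases with 4 other genes, 9.28% with *Ang5*.

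*Lyz1*, on chromosome 10 from 117287797 to 117292868, encodes the Paneth cell lysozyme, which cleaves peptidoglycan in bacterial cell walls. Without butyrate it had 11194 counts at 48 h and 9360 at 72 h, and with butyrate 13545 and 9020. After scaling, the butyrate library was slightly the higher at each time, with log2 ratios of 0.10 (0.07 to 0.14) and 0.08 (0.03 to 0.12). *Lyz1* shared 34.2% of its windows of 31 bases with 1 other gene, *Lyz2*, the lysozyme of myeloid cells, whose coding sequence is 95.1% identical. *Lyz2* had 3, 0, 1 and 0 counts in the 4 libraries, so that few reads were assigned to it. Per 1000 counts of *Lyz1* there were 17.2 counts of *Defa24* in untreated and 4.58 in butyrate cultures at 48 h, and 22.0 and 2.66 at 72 h. Both products belong to Paneth cells in the small intestine, and their ratios to untreated differed in these cultures.

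Of 9 genes on the Paneth cell list, 8 were tested, 4 of them members described above. Their median log2 ratio was −0.20 at 48 h and 0.00 (0.0028) at 72 h, with 2 at least 2-fold lower at 48 h (*Defa24* and *Habp2*), 2 at 72 h (*Defa24* and *Itln1*) and 0 at least 2-fold higher. *Defa24* was chosen for its decrease, and of all tested names 3.08% and 3.78% were at least 2-fold lower and 6.94% and 4.53% at least 2-fold higher. Without butyrate, *Habp2* had 56 counts at 48 h and 29 at 72 h, and with butyrate 4 and 18. *Mptx2*, a pentraxin of Paneth cells, had no count in any library.

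*Lypd8* and *Pglyrp1* had ratios of opposite sign at 48 h and 72 h. *Lypd8*, on chromosome 11 from 58379043 to 58390728, encodes a protein anchored to the surface of colonocytes that binds flagella and keeps motile bacteria away from the epithelium. Without butyrate it had 19295 counts at 48 h and 21475 at 72 h, and with butyrate 36478 and 15136. The butyrate library was the highest of the 4 at 48 h and the lowest at 72 h, while the untreated libraries were within 1.07-fold of each other. The log2 ratio came to 0.75 (0.72 to 0.77) after 48 h and −0.38 (−0.41 to −0.35) after 72 h, a difference of −1.12 (−1.16 to −1.08). None of the 1281 windows of 31 bases in its transcripts occurs in another gene.

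Over the 13 genes of the colonocyte list, *Lypd8* among them, the median log2 ratio was 0.16 at 48 h and −0.41 at 72 h, with 4 of 13 below 0 at 48 h and 12 of 13 at 72 h, against 51.3% and 49.7% of all tested names. *Slc26a3*, the chloride and bicarbonate exchanger of the colonic surface, had log2 ratios of 1.29 and −0.20, and the carbonic anhydrase gene *Car4* had 1.87 and −0.39. *Slc51b*, a subunit of the basolateral bile acid transporter, had −0.66 and −1.69, and the acute phase gene *Saa1* −1.61 and −0.34. The part of the colonocyte genes in the values of *Lypd8* was not tested.

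*Pglyrp1*, on chromosome 7 from 18871331 to 18890459, encodes a secreted protein that binds peptidoglycan and kills bacteria. Without butyrate it had 4757 counts at 48 h and 4771 at 72 h, and with butyrate 5596 and 3787. The 4 scaled values lay between 4090 and 5077, the narrowest relative range of the 10 genes. This gave a log2 ratio of 0.06 (0.01 to 0.12) after 48 h and −0.20 (−0.27 to −0.14) after 72 h. The other genes of the family, *Pglyrp2*, *Pglyrp3* and *Pglyrp4*, had at most 2 counts in any library.

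**Figure D4:**
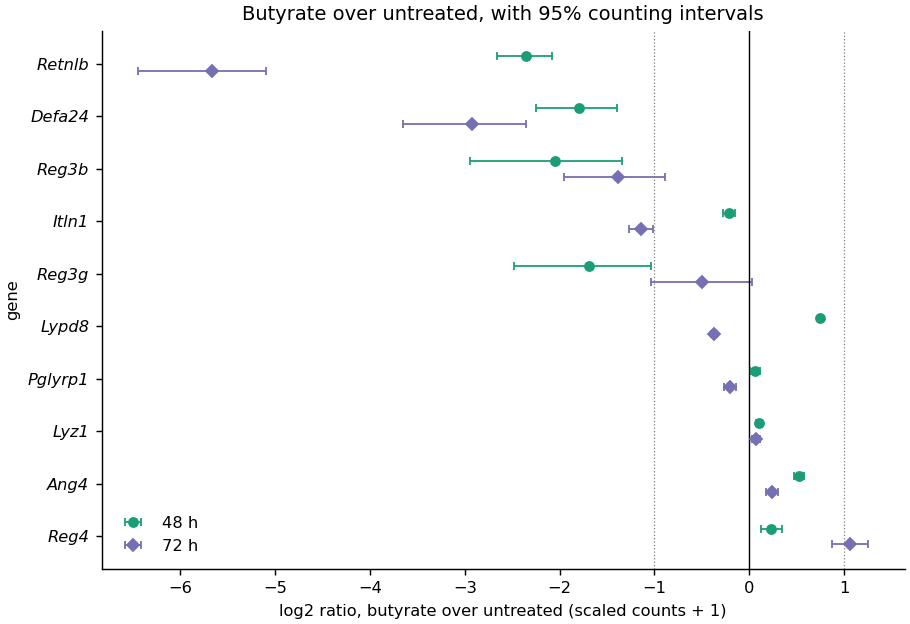
Log2 ratio of butyrate over untreated (horizontal axis, scaled counts plus 1) for each of the 10 genes, ordered by the ratio at 72 h, with circles for 48 h, diamonds for 72 h and bars for the 95% counting interval. Dotted lines mark 2-fold. At 72 h the interval of *Reg3g* included 0 (−1.04 to 0.02), and the short bars of well-counted genes such as *Pglyrp1* (0.01 to 0.12 at 48 h) reflect their depth.

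Levels were compared between genes as CPM per kb of exon, with lengths from GENCODE M21. In the untreated library at 48 h the order was *Lypd8* (697), *Lyz1* (411), *Ang4* (293), *Itln1* (156), *Pglyrp1* (120), *Reg4* (49.999), *Retnlb* (37.2), *Defa24* (21.4), *Reg3b* (2.80) and *Reg3g* (1.49). The first 5 of these were above the 97th percentile of tested genes with a length, and the lectin genes *Reg3b* and *Reg3g* were below the middle, at the 35.1 and 25.5 percentiles. The place of *Retnlb*, which was chosen for its decrease, was at the 91.5 percentile in untreated and the 59.1 in butyrate cultures at 48 h, and at the 96.1 and 24.0 at 72 h. *Lyz1* stayed between the 99.2 and 99.4 percentiles in all libraries. No spread between replicates is known, so it cannot be said which neighbours in this order differ.

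Summed over the 10 genes, the counts made up 0.211% of the library in untreated and 0.282% in butyrate cultures at 48 h, and 0.184% and 0.164% at 72 h. *Lypd8* supplied between 42.4% and 53.4% of each sum. The log2 ratio of the sum was 0.41 (0.39 to 0.43) after 48 h and −0.23 (−0.25 to −0.20) after 72 h, and without *Lypd8* it was 0.10 (0.08 to 0.13) and −0.09 (−0.12 to −0.06). The sign of the sum at each time was that of *Lypd8*, its most abundant member.

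Between the untreated libraries, 2 of 10 genes (*Reg4* and *Itln1*) were at least 2-fold lower at 72 h than at 48 h, against 1.82% of all tested names, and 0 at least 2-fold higher, against 2.66%. *Retnlb* came just short of 2-fold, with a log2 ratio of 0.9990. Between the butyrate libraries, 4 of 10 (*Retnlb*, *Itln1*, *Lypd8* and *Defa24*) were at least 2-fold lower at 72 h, against 4.95%, and 2 (*Reg3b* and *Reg3g*) at least 2-fold higher, against 3.67%. Leaving out *Retnlb* and *Defa24*, whose butyrate values chose the group, leaves *Itln1* and *Lypd8* as the lower genes among the other 8. *Lypd8* only just passed, at −1.018 (−1.045 to −0.990). The call of *Defa24* was lost with a pseudocount of 5, which left 3 of 10, and in its sum with *Defa17* and *Defa3*, whose log2 ratio was −0.21 (−0.67 to 0.23) between the butyrate libraries. Over all rows with a *Defa* name that ratio was −0.34 (−0.62 to −0.07). These comparisons use the same 4 libraries as those with butyrate and do not add independent evidence.

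A list of 43 other epithelial defence genes, chosen with earlier results of these data known, gives the surroundings of the 10. Of these, 42 were in the table and 21 were tested. Ratios were below 0 at both times for 7, above 0 at both times for 7 and of opposite sign for 7. At 48 h, 3 of 21 were at least 2-fold lower and 1 at least 2-fold higher, against 3.08% and 6.94% of all tested names. At 72 h there were 6 and 1, against 3.78% and 4.53%. The medians were 0.29 and −0.23, and that at 48 h was 0.18 with a mean scaled count of at least 50 and 0.07 with at least 1 count in any library. At both times, 2 of the 21 were at least 2-fold lower (*Gsdmc4* and *Duox2*) and 1 at least 2-fold higher (*Ltf*), against 0.887% and 2.55% of all tested names. *Gsdmc4*, of the pore-forming gasdermin family, had −1.26 and −1.90, with 114 and 183 counts in untreated and 53 and 44 in butyrate libraries. *Duox2*, an oxidase that releases hydrogen peroxide at the epithelial surface, had −1.04 and −1.02, with 1349 and 1358 counts in untreated and 740 and 612 in butyrate libraries, and was named after its values were seen. *Ltf*, which encodes the iron-binding protein lactoferrin, had 1.89 and 1.71 at low counts, with 6 and 5 counts in untreated and 28 and 17 in butyrate libraries. *Ccl20*, a chemokine with antimicrobial activity, had 16 and 86 counts in untreated and 31 and 17 in butyrate libraries.

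Receptors and transcription factors known to control antimicrobial genes were also compared. All 21 genes of that list were tested, and 0 were at least 2-fold lower or higher at either time. Of all tested names, 3.08% were lower and 6.94% higher at 48 h, and 3.78% and 4.53% at 72 h. For a list of 21 genes, a count of 0 lies near these shares. The medians were −0.10 at both times. The largest ratios were those of *Il17rc*, a subunit of the interleukin-17 receptor (0.27 and −0.60), the vitamin D receptor *Vdr* (−0.47 and −0.20), *Il10rb*, a subunit of the interleukin-22 receptor (−0.10 and −0.45), and the goblet cell factor *Klf4* (−0.05 and −0.44).

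**Figure D5:**
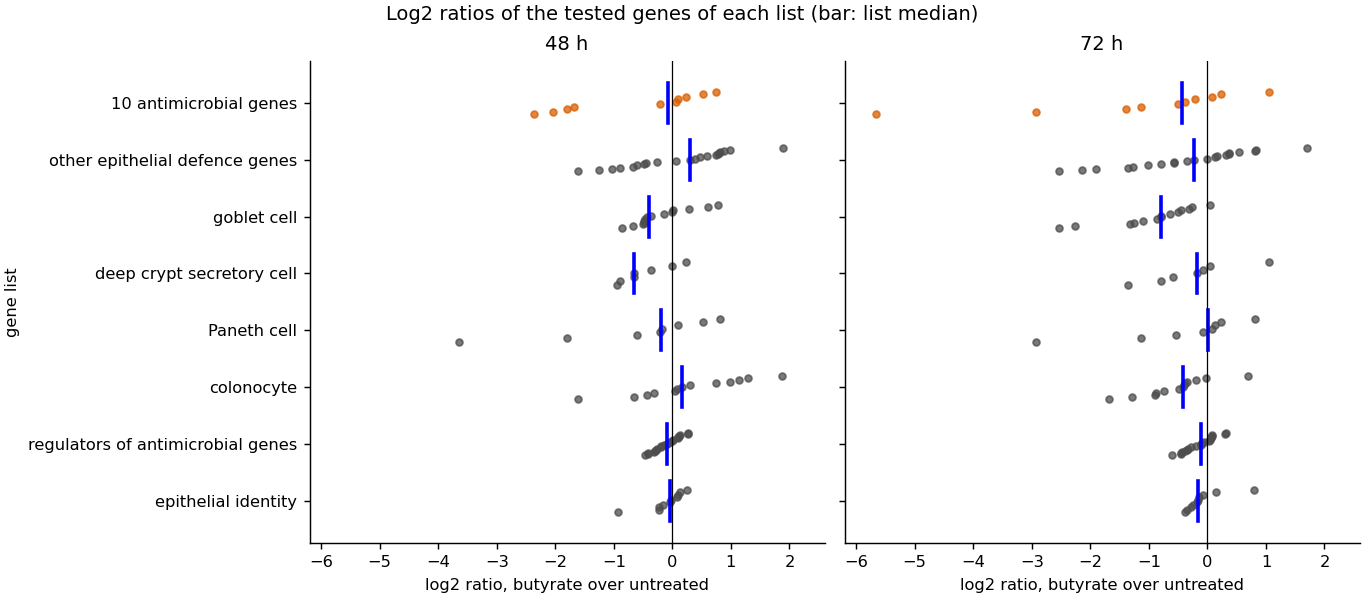
Log2 ratios of butyrate over untreated (horizontal axis) at 48 h and 72 h for the tested genes of each list, with 1 point per gene and a blue bar at the list median. The 10 antimicrobial genes (orange) spread from −2.36 to 0.75 at 48 h and from −5.66 to 1.06 at 72 h, and the lower ends are those of *Retnlb*, which helped to choose the group. The 21 regulators stayed within 2-fold, as did most tested names.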

How the data were processed

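Bulk RNA-seq (poly-A selected) was analysed for 4 libraries, 1 per condition, so no test across replicates was possible and p-values were not computed. The authors deposited estimated counts per gene name, rounded to whole numbers, from kallisto 0.44.0 on GRCm38.p6 per the labels, summed with tximport, without normalisation or filter. The k-mer length, the annotation release and the handling of strand are not given in the sources used here. Windows of 31 bases were used to measure sharing. Of 36144 names, 26 had been turned into dates.

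As in the study's methods, names were tested where 2 or more libraries had over 10 counts. Counts were scaled with DESeq2 1.42.0 size factors (TMM from edgeR 4.0.16 as an alternative, R 4.3.3), and the rest was run in Python 3.11.15. Intervals were exact Clopper-Pearson intervals on pairs of counts (Wald intervals for differences of 2 ratios), at 95%. No molecular identifiers were used, so reads are not single molecules, and both the intervals and the floor (3 counts) reflect counting error alone. The scripts were tested on simulated data. Exon lengths were matched for 35907 names. The members and lists were chosen with earlier results of these data known. All 10 members were named. Of 13 *Defa* rows with at least 10 counts in a library, *Defa17* and *Defa3* were named for their near-identical sequence. Up to 4 genes of each other list were named by their largest ratio, those past 2-fold where there were any. The 5 genes closest to *Retnlb* were named too. *Epcam*, *Cdx2*, *Muc2*, *Kit*, *Spink4*, *Ang*, *Rnase4*, *Duox2*, *Dmbt1*, *Pigr*, *Pla2g2a*, *Defa2*, *Defa20*, the *Sprr2a* genes and genes listed at low or no counts were named outside these rules. Alternatives tried were scaling by TMM or by total count, a pseudocount of 5, thinning to the smallest library (100 draws) and other count filters.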

Additional observations from a re-analysis of the deposited data

Results flagged for a closer look

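*Lypd8* moved in opposite directions at the 2 times, with a log2 ratio of 0.746 at 48 h and −0.375 at 72 h, both counting intervals excluding 0. *Pglyrp1* did so too, at 0.0618 and −0.204. With 1 library per condition the difference between the times was not tested against replicates.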

How the results depend on the processing

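No paired analysis was possible because every condition has a single library, so that the groups compared share fewer than 2 replicate numbers. Counts of members past 2-fold were the same when scaled by TMM or by total count and with both other count filters, whereas a pseudocount of 5 gave 3 in place of 4 lower between butyrate libraries. These counts were not recomputed on thinned libraries. The background share of names past 2-fold depended on the count filter. With all names that had at least 1 count in any library it was 9.40% lower and 10.98% higher at 48 h, 8.25% and 10.6% at 72 h, 8.51% and 6.67% between untreated libraries, 10.2% and 9.91% between butyrate libraries, and 1.75% lower at both times. With a mean scaled count of at least 50 it was 1.54% and 3.93%, 1.60% and 2.33%, 0.841% and 0.755%, 2.51% and 1.66%, and 0.412% lower and 1.39% higher at both times. Fewer names were tested there. A pseudocount of 5 gave 1.19% and 1.64% between untreated libraries.

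The log2 ratio of the summed members without *Lypd8* was 0.105 at 48 h, −0.0922 at 72 h, −0.304 between untreated and −0.501 between butyrate libraries. For the sum of all 10 members, total count scaling gave −0.173 at 72 h, −0.195 between untreated and −0.786 between butyrate libraries. Total count scaling also reversed the ratio of *Defa24* between untreated libraries (−0.0344) and the difference between times of *Lyz1* (0.0198), whose main intervals included 0. Of 200 recomputed member values, 8 moved beyond their counting intervals without changing sign, and 2 are the reversals above, which lay within theirs. The other 190 kept their sign and lay within their intervals. Summing all rows with a *Defa* name, chosen after seeing the data, gave −0.998 and −1.43 in place of *Defa24* alone. Depth limits *Reg3b*, *Reg3g*, *Defa24* and *Retnlb*, whose lowest counts were between 18 and 24.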

Other observations

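Further antimicrobial genes were abundant in these cultures. They were picked after their values were seen. *Sprr2a2*, of a family of small proline-rich proteins that kill Gram-positive bacteria, had 47689 and 39989 counts in the untreated and 106893 and 53060 in the butyrate libraries. Summed with its near-identical neighbours *Sprr2a1* and *Sprr2a3*, the log2 ratio was 0.97 (0.95 to 0.98) after 48 h and 0.50 (0.48 to 0.52) after 72 h, and the sum made up 0.254% of the library in untreated and 0.498% in butyrate cultures at 48 h. *Pla2g2a*, a secreted phospholipase that attacks bacterial membranes, had 1180 and 950 counts in untreated and 2328 and 1533 in butyrate libraries, with log2 ratios of 0.81 and 0.82. Within the sum, *Sprr2a1* had a log2 ratio of −0.01 (−0.09 to 0.07) at 72 h. The summed *Sprr2a* rows and *Pla2g2a* were thus higher with butyrate at both times. So were *Rnase4* (log2 ratios of 0.59 and 0.32) and *Ang* (0.88 and 0.83) of the same list. Some other abundant genes of the list were not. *Dmbt1*, a scavenger receptor protein of mucus, had log2 ratios of 0.39 and −0.57, and *Pigr*, which carries antibodies across the epithelium, −0.46 and −0.23.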
